A study of Mus musculus with 16 samples.

Results

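The genes described here encode the nuclear-encoded subunits of oxidative phosphorylation, the 5 enzyme complexes of the inner mitochondrial membrane that carry electrons to oxygen and make ATP. They were chosen by name from the 30819 genes of the deposited matrix: symbols that start with Ndufa, Ndufb, Ndufc, Ndufs or Ndufv and a number, with Uqcr, with Cox4 to Cox8 or with Atp5, and Sdha, Sdhb, Sdhc, Sdhd and Cyc1, without pseudogenes marked "-ps". No measured value entered that rule, though it was set with earlier results of these data known. It gave 85 rows with 83 symbols, of which 38 belonged by name to complex I, 4 to complex II, 9 to complex III, 16 to complex IV and 18 to complex V.

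Complex I (NADH dehydrogenase) and complex II (succinate dehydrogenase, which is also an enzyme of the tricarboxylic acid cycle) pass electrons to ubiquinone. Complex III hands them to cytochrome c and complex IV (cytochrome c oxidase) to oxygen, and the proton gradient that complexes I, III and IV build drives ATP synthase, complex V. Activated macrophages and monocytes are known for moving between this respiration and glycolysis.

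RNA was sequenced from macrophages and monocytes sorted out of MN/MCA1 tumours, a transplanted mouse sarcoma, grown under the skin for 21 days in C3 wild-type or C3-/- mice labelled with the strain C57BL/6J. C3 is the central protein of complement. The question of the design is how its loss in the host changes both populations. The 4 groups were macrophages of wild-type mice, macrophages of C3 knockout mice, monocytes of wild-type mice and monocytes of C3 knockout mice. Each held 4 libraries, 1 per animal: the wild-type mice are numbered 1 to 4, the knockout mice 6 to 9, and a mouse gave a library of either cell type. The p-values measure the spread between these mice. Macrophages were sorted as F4/80+ and Ly6C-, monocytes as Ly6C+ and F4/80-, both as CD45+, CD11b+, Ly6G- and CD11c-. The knockout is in the host, while the injected tumour cells are of 1 line.

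The deposited values are log2 values per gene that draw low values together, and reads were recovered from them, from 18689709 to 29035416 per library. Levels are given as normalized reads, which are recovered reads divided by the library's size factor, and differences as limma's log2 difference on the deposited scale with its standard error (SE) and adjusted p-value. That scale is compressed: for members with a difference over 0.1, the log2 ratio of mean normalized reads was a median of 1.39 to 1.42 times the deposited difference. C3 itself averaged 4008 ± 858 normalized reads in wild-type macrophages and 1234 ± 168 in knockout macrophages, and 15158 ± 718 and 4925 ± 288 in monocytes (SD, n = 4 each), so the knockout libraries were lower but not at 0. All 8 monocyte markers were lower in macrophages of both genotypes. Of 10 macrophage markers 8 were higher, with Fcgr1 the exception that was lower. Proliferation genes were also higher in macrophages, 6 of 6 in both genotypes. Neutrophil markers, a possible carry-over in the sort, summed to 37.2 to 66.2 normalized reads in wild-type macrophages and 4111 to 7679 in wild-type monocytes, and all 3 tested of 6 were lower in macrophages of both genotypes. Fibroblast and sarcoma markers summed to 821 to 2242 and 3385 to 6596 in the same groups, and 4 of 5 tested were lower in wild-type macrophages. Red blood cell genes summed to 870 to 2467 and 2928 to 7158, with 5 of 5 lower in wild-type macrophages and 4 of 5 in knockout. T and NK cell markers summed to 24.5 to 43.8 and 47.5 to 269.6, with 2 of 3 tested lower in wild type and 4 of 4 in knockout. Of 5 dissociation genes 3 were lower in macrophages of both genotypes. The part of these markers in the differences between cell types was not tested. In such bulk samples fewer cells of a type and less RNA per cell cannot be told apart.

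Of the 85 rows, 78 passed the filter on low values in every comparison. ATP synthase subunit Atp5a1 has 2 rows, with base means of 0.295 and 0.382 over all libraries, and the complex III core protein Uqcrc1 has a base mean of 0.656. Every respiring cell uses both genes, so these rows are taken as listed near 0 and not as absent. Ndufa11b, annotated as a processed pseudogene, had a base mean of 1.53, Cox7b2 0.814 and the hypoxia-linked Ndufa4l2 4.35. The symbol Ndufa13 also has 2 rows: the row with a base mean of 2116 is the subunit, and the row with 11.1 carries an Ensembl identifier that the GENCODE M21 annotation (build GRCm38) names Yjefn3. The latter passed the filter in 3 of 5 comparisons. Other subunits, such as Ndufs3, are not analysed here. Where exons of members overlap another gene, their reads there cannot be told apart from that gene's. For Ndufa3, Uqcrc2 and Cox4i1 the other gene lies on the opposite strand, which the libraries do not mark, and Atp5g2 overlaps Mir688 on its own strand.

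Promoter sequences are shown for 3 genes, because members varied together between libraries and nuclear respiratory factors are known to bind promoters of this gene class. Each line gives the 250 bases before the RefSeq start of transcription on build GRCm38.p6, 5′ to 3′ on the gene's strand, which is the minus strand for all 3. Capitals mark matches to GCGCANGCG (NRF1), CCGGAAG (GABPA) or AANATGGCG (YY1) on either strand, and matches on opposite strands may overlap. Cox6a1 encodes the widely expressed form of a complex IV subunit (chr5:115348959-115349208), Sdha the flavoprotein of complex II (chr13:74350241-74350490) and Ndufa4 a cytochrome c oxidase subunit first assigned to complex I (chr6:11907451-11907700).
Cox6a1: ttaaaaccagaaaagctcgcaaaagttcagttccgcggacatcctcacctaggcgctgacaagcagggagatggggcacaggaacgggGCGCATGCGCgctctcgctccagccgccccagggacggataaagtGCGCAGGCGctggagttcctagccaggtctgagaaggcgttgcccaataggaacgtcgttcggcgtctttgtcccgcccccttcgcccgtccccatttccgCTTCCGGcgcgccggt
Sdha: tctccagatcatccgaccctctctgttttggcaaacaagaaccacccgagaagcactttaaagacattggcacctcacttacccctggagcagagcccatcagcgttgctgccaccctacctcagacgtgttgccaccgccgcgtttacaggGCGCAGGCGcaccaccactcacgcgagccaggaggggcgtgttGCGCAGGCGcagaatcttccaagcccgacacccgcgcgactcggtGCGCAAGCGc
Ndufa4: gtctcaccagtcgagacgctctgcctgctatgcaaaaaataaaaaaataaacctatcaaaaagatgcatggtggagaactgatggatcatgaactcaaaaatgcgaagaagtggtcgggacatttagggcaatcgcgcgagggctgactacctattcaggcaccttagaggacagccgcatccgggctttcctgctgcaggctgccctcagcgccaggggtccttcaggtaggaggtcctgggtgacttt
The Cox6a1 and Sdha windows hold NRF1 letters, and Cox6a1 also GABPA letters, while none of the 3 motifs was found in the window of Ndufa4. These genes do not stand for the family. The windows of Ndufa12 and Ndufc2, both higher in macrophages, held none of the 3 motifs either. Whether such letters bear on the values was not tested.

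RefSeq promoter windows of 300 bases (250 before the start and 50 after it) matched 66 members, of which 19 (28.8%) held the NRF1 letters, against 14.1% of the windows of genes tested between wild-type cell types and 6.47% of all 27025 windows. GABPA letters stood in 14 members (21.2%), against 19.2% of the tested genes and 9.12% of all. YY1 letters stood in 8 (12.1%), against 5.68% and 2.51%. TNAAGGTCA, the letters of the estrogen-related receptor, stood in 3 (4.55%), against 0.626% and 1.26%, and TATAAA in 6 (9.09%), against 7.13% and 14.2%. The members' windows had a median GC content of 57.3%, against 52.7% for all windows. A match is a description of letters and not a binding site.

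By the median over members grouped by name, levels per length ranked the complexes alike in all 4 groups at the top. Over the members tested in every comparison, the median subunit of complex II stood highest, at 2299 normalized reads per kb of exonic length in wild-type macrophages, 2184 in knockout macrophages, 1813 in wild-type monocytes and 1676 in knockout monocytes. Complex III came next, with 1785, 1639, 1630 and 1596. Complexes I, IV and V lay close together, with medians of 941, 1020 and 1028 in wild-type macrophages and 953, 841 and 1004 in wild-type monocytes. The widest spread within a complex was in complex V, which ran in wild-type macrophages from 6.69 per kb for Atp5l to 6698 for Atp5b, the catalytic beta subunit of the F1 head. Exonic lengths are unions over GENCODE M21 transcripts, which include rare long forms, so levels per kb are lower bounds for genes such as Atp5l and Ndufs1. Atp5l also had few reads, with a base mean of 40.9 over all libraries.

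**Figure D1:**
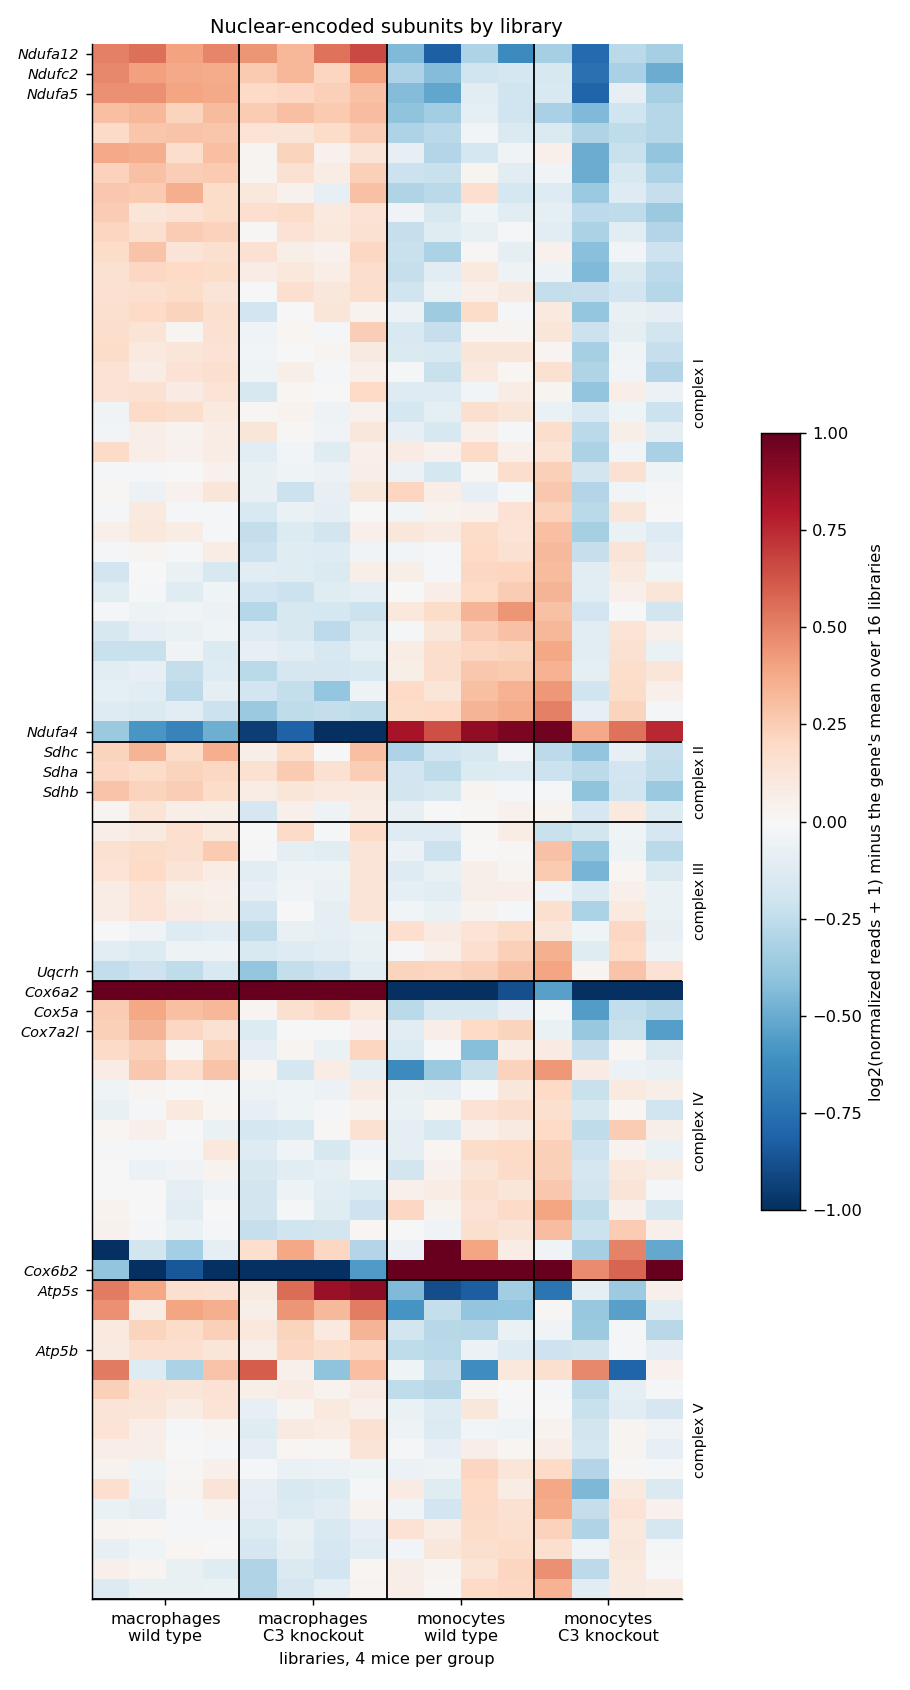
Each row is 1 of the 78 subunit genes tested in every comparison, grouped by complex, and each column 1 of the 16 libraries; colour is log2(normalized reads + 1) minus the gene's mean over all libraries, capped at 1 in both directions, with names beside some of the genes described in the text. Ndufa4 and Cox6b2 are lower and Cox6a2 and Ndufa12 higher in the macrophage libraries of both genotypes, and most members of monocyte knockout mouse 7 are low.

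Subunit genes differed between macrophages and monocytes in both directions, and the 5 complexes did not move as 1 block. In wild-type mice 28 of 79 tested members were higher and 16 lower in macrophages, 55.7% of the members, against 63.4% of all 12769 genes tested, of which 31.7% were higher and 31.7% lower. In knockout mice 23 of 78 were higher and 9 lower, 41% of the members, against a background of 60.5% (31.0% higher and 29.6% lower). The share of members called was thus below the background in both genotypes. Their median difference was 0.07 in wild type and 0.05 in knockout, and centring each library on its own median gave 0.03 and -0.02 and recovered reads with TMM and voom 0.15 and 0.11, so the sign of the family as a whole in knockout depends on the scaling. Centring turned the calls into 23 higher and 20 lower in wild type, and recovered reads with TMM scaling and voom weights into 35 and 11. In knockout the same settings gave 19 higher and 17 lower, and 28 and 6.

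The genotypes use separate mice. Calls made in wild type were shared less often than over all genes, while fewer members were called in knockout. For calls made in knockout the shares lay near those of all genes. Of the 28 higher in wild type 21 (75%) were also higher in knockout, which is 91.3% of the 23 there, against 84.1% and 86.1% over all genes called higher. Of the 16 lower in wild type 8 (50%) were lower in knockout, 88.9% of the 9 there, against 79.0% and 84.6% over all genes called lower. No member was called in opposite directions. Of 78 members 70 (89.7%) had the same sign in both genotypes, against 89.5% of 12606 genes tested in both.

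**Figure D2:**
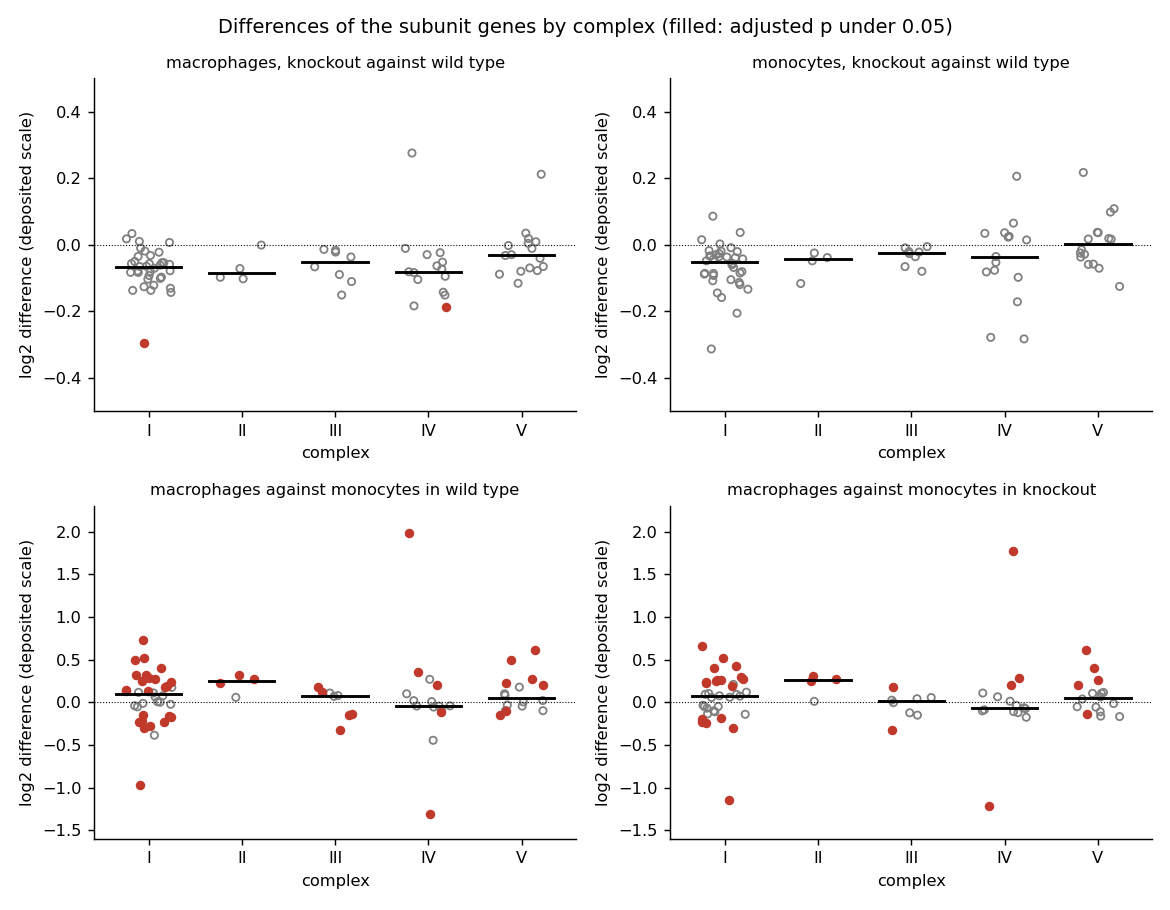
Each point is 1 subunit gene, placed by complex on the horizontal axis and by its log2 difference on the deposited scale on the vertical axis, in each of 4 comparisons; filled points passed an adjusted p of 0.05 in limma and bars are medians. The genotype panels span -0.5 to 0.5 and the cell type panels -1.6 to 2.3, and filled points number 2 and 0 between genotypes and 44 and 32 between cell types.

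Succinate dehydrogenase had the largest share of members called higher in macrophages, 3 of 4 in both genotypes. Sdha, Sdhb and Sdhc were higher in macrophages in both genotypes and Sdhd was not called, and the median of the 4 was 0.25 in wild type and 0.26 in knockout, 0.21 and 0.19 with centred libraries. Sdha gave 8336, 8234, 8444 and 8345 normalized reads in wild-type macrophages and 6357, 6081, 6582 and 6619 in wild-type monocytes. It gave 8037, 8677, 8031 and 8606 in knockout macrophages and 6234, 6027, 6334 and 6089 in knockout monocytes. All macrophage libraries were above all monocyte libraries, by 1.3-fold in wild type (log2 difference 0.27 ± 0.04 SE, limma adjusted p = 6.67e-05) and 1.35-fold in knockout (0.31 ± 0.05, adjusted p = 0.000104). Sdhb, the iron-sulfur subunit, differed by 0.23 in wild type and 0.25 in knockout, and Sdhc, a membrane anchor, by 0.32 and 0.27. Sdhd, the other anchor, stood at 0.06 (adjusted p = 0.205) and 0.01 (adjusted p = 0.881).

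In complex I, 15 of 36 tested members were higher and 9 lower in wild-type macrophages, and 12 and 6 of 35 in knockout. Membership goes by name, so both counts include Ndufa4, and the 36 include the row named Yjefn3. Counts by complex are to be read against the shares of all genes called. These were 31.7% in each direction in wild type, and 31.0% higher and 29.6% lower in knockout. Core subunits of complex I carry the flavin, the iron-sulfur clusters or the quinone site. Of the 6 tested, 4 were higher in both genotypes and none was lower, with Ndufs1 and Ndufv2 among the higher ones. As in complex II, all core differences were positive, from 0.08 to 0.28 in wild type and 0.09 to 0.28 in knockout. Ndufs1, the largest core subunit, averaged 2230 ± 91.2 normalized reads in wild-type macrophages and 1861 ± 75.0 in wild-type monocytes (SD, n = 4; log2 difference 0.19 ± 0.04 SE, limma adjusted p = 0.00209). Reads of Ndufs1 cannot be told apart from those of Ino80dos on the opposite strand over 489 exonic bases. Ndufv1 and Ndufs8 did not pass, at 0.08 and 0.11 in wild type.

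Accessory subunits of complex I, which surround the core, went both ways. Ndufa12, an accessory subunit whose assembly-factor paralog is Ndufaf2, had the largest rise in the complex. It gave 1002, 1037, 938 and 991 normalized reads in wild-type macrophages and 521, 402, 570 and 455 in wild-type monocytes, 962, 891, 1031 and 1121 in knockout macrophages and 562, 413, 587 and 564 in knockout monocytes. The cell types did not overlap, and the ratio of means was 2.04 in wild type (log2 difference 0.73 ± 0.07 SE, limma adjusted p = 4.78e-06) and 1.88 in knockout (0.66 ± 0.08, adjusted p = 2.83e-05). Ndufc2 followed at 0.49 and 0.52, Ndufa5 at 0.52 and 0.40 and Ndufa9, which shares 67 exonic bases with a gene on the opposite strand, at 0.40 and 0.42. On the lower side stood Ndufa1, at -0.30 in wild type and -0.31 in knockout, Ndufa3 at -0.27 and -0.24, and Ndufs4 at -0.24 and -0.23. The knockout call of Ndufa3 was lost in 7 of 13 alternatives, with adjusted p-values from 0.00568 to 0.0959.

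Ndufa4 had the smallest adjusted p-value of all members. Although it carries a complex I name, its protein is known as a subunit of cytochrome c oxidase. It gave 735, 634, 598 and 676 normalized reads in wild-type macrophages and 1678, 1485, 1755 and 1823 in wild-type monocytes. In knockout mice it gave 493, 542, 447 and 472 in macrophages and 1854, 1237, 1385 and 1601 in monocytes. Every macrophage library was below every monocyte library, in 4 of 4 mice of each genotype. The mean was 2.55-fold lower in macrophages of wild type (log2 difference -0.97 ± 0.06 SE, limma adjusted p = 1.43e-07) and 3.11-fold lower in knockout (-1.14 ± 0.09, adjusted p = 2.71e-07). Its paralog Ndufa4l2, which did not reach the filter, gave 0 to 1.85 reads in wild-type macrophages and 5.45 to 14.1 in wild-type monocytes, while knockout macrophages (0 to 1.64) and knockout monocytes (0.812 to 10.3) overlapped.

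**Figure D3:**
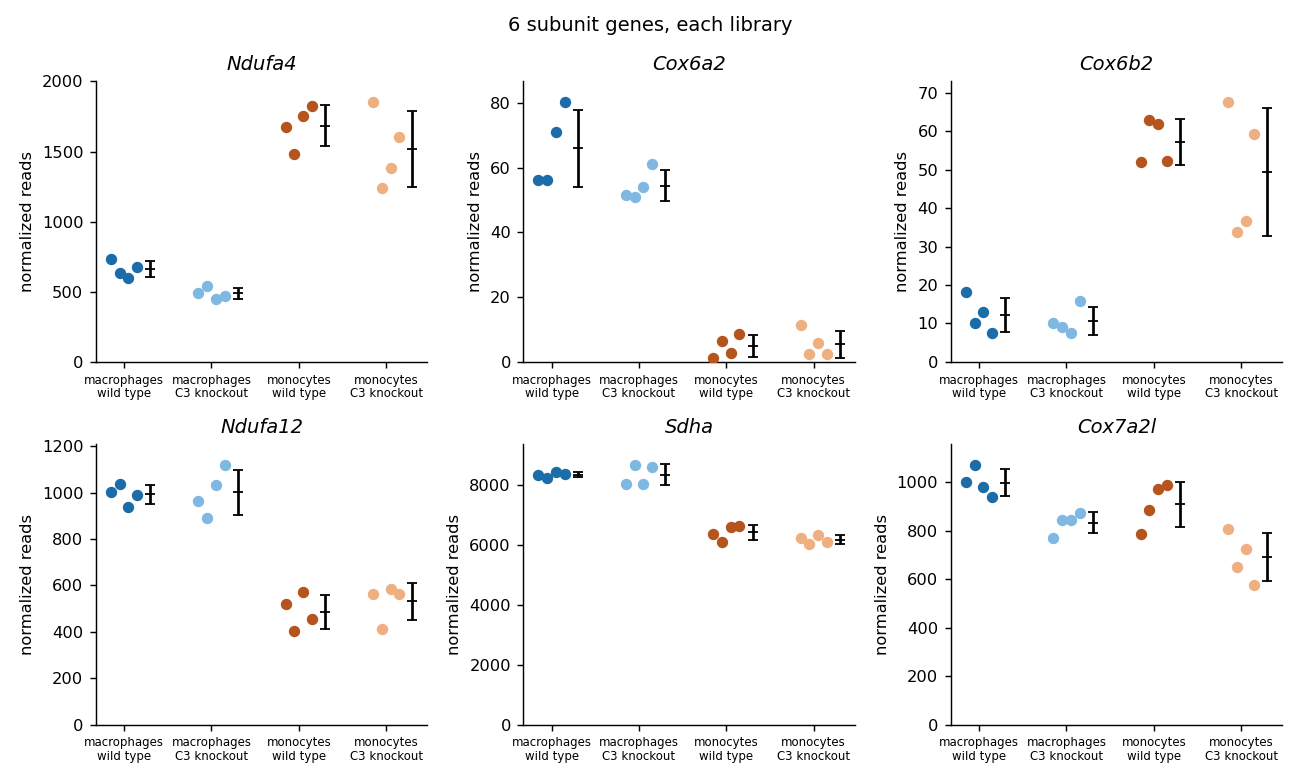
Normalized reads of 6 subunit genes in each library (points, 4 mice per group), with the group mean and SD beside them (black); every axis starts at 0. Ndufa4 and Cox6b2 are higher in monocytes, Cox6a2, Ndufa12 and Sdha higher in macrophages, and knockout libraries lie below wild-type libraries of the same cell type for Ndufa4 in macrophages and, on average, for Cox7a2l in both cell types.

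Among members grouped by name, complex IV held the largest differences of the family, both in tissue-restricted isoforms at low levels. Its widely expressed subunits with a Cox name differed less. They leave out Ndufa4, the cytochrome c oxidase subunit counted under complex I, which stood at -0.97 in wild type and -1.14 in knockout. Of 10 widely expressed subunits with a Cox name 2 were higher and 1 lower in wild-type macrophages and 1 higher in knockout. Cox6a2, the isoform of heart and skeletal muscle, gave 56.1, 56.1, 71.1 and 80.3 normalized reads in wild-type macrophages and 1.24, 6.42, 2.82 and 8.72 in wild-type monocytes. In knockout mice it gave 51.5, 50.8, 54.0 and 61.2 in macrophages and 11.3, 2.41, 5.79 and 2.44 in monocytes. The groups stood far apart, with ratios of means of 13.7 in wild type (log2 difference 1.98 ± 0.17 SE, limma adjusted p = 1.78e-06) and 9.93 in knockout (1.77 ± 0.17, adjusted p = 2.70e-06). Per exonic length it made up 1.57% ± 0.231 of the sum of Cox6a1 and Cox6a2 in wild-type macrophages and 0.109% ± 0.0738 in wild-type monocytes (SD, n = 4).

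Cox6a2 shares 70 exonic bases with Itgad, a leukocyte integrin gene on the opposite strand, and the libraries do not mark strand, so reads there cannot be told apart. Itgad, looked up after the values of Cox6a2 were seen, was at 0 to 2.77 normalized reads in wild-type macrophages, where Cox6a2 stood at 56.1 to 80.3, and at 48.8 to 125 in knockout macrophages. The 4 skeletal muscle markers in the matrix averaged 10.6 ± 5.93 summed reads in wild-type macrophages and 16.6 ± 4.88 in wild-type monocytes (SD, n = 4), and the part of muscle RNA in Cox6a2 was not tested.

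Cox6b2, the testis isoform of another complex IV subunit, went the other way. It gave 18.1, 10.1, 12.9 and 7.61 normalized reads in wild-type macrophages and 51.9, 62.9, 62.0 and 52.3 in wild-type monocytes, and 10.1, 9.01, 7.41 and 15.955 in knockout macrophages against 67.6, 33.7, 36.7 and 59.3 in knockout monocytes. The cell types did not overlap in either genotype. The mean was 4.71-fold lower in macrophages of wild type (log2 difference -1.31 ± 0.15 SE, limma adjusted p = 1.60e-05) and 4.64-fold lower in knockout (-1.22 ± 0.18, adjusted p = 0.000109). Its share of Cox6b1 and Cox6b2 per length was 0.226% ± 0.0828 and 1.01% ± 0.122 in macrophages and monocytes of wild type. Cox7a1, another muscle isoform, and Cox4i2, the lung isoform, were not called in either genotype, at 0.27 and -0.45 in wild type (adjusted p = 0.108 and 0.0612). Cox4i2 was lower in macrophages of 4 of 4 wild-type mice, and with the mouse as block it was called (-0.45, limma adjusted p = 0.0409). Their partners Cox7a2 and Cox4i1 stood at -0.06 and -0.04, and Cox8a at 0.01. Cox5a, a matrix-side subunit that shares 269 exonic bases with the opposite-strand gene Gm26631, was higher by 0.35 in wild type and 0.29 in knockout.

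In complex III, Uqcrh, the hinge protein that binds cytochrome c1, was lower in macrophages of both genotypes. It gave 1204, 1233, 1198 and 1282 normalized reads in wild-type macrophages and 1661, 1660, 1679 and 1746 in wild-type monocytes, with no overlap (log2 difference -0.33 ± 0.04 SE, limma adjusted p = 2.61e-05), and the knockout difference was -0.32 ± 0.07 (adjusted p = 0.00129). The Rieske protein Uqcrfs1 was lower in wild type (-0.15, adjusted p = 0.00581), and in knockout it stood at -0.12 (adjusted p = 0.0918), where it was called with centred libraries (-0.19, adjusted p = 0.0181) and in a joint model of 16 libraries (adjusted p = 0.0360). Cyc1, cytochrome c1, stood at 0.07 and 0.03. In complex V 5 members were higher and 2 lower in wild type and 4 and 1 of 16 in knockout. Of the c-ring genes, which encode the same mature protein, Atp5g1 (0.28 and 0.26) and Atp5g2 (0.49 and 0.40) were higher, while Atp5g3 stood at 0.10 and 0.11. Atp5s, coupling factor B, was higher by 0.62 and 0.61, from a mean of 62.6 normalized reads in wild-type monocytes (51.3 to 75.2) to 119 in wild-type macrophages (106 to 138), and Atp5b by 0.23 and 0.21.

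**Figure D4:**
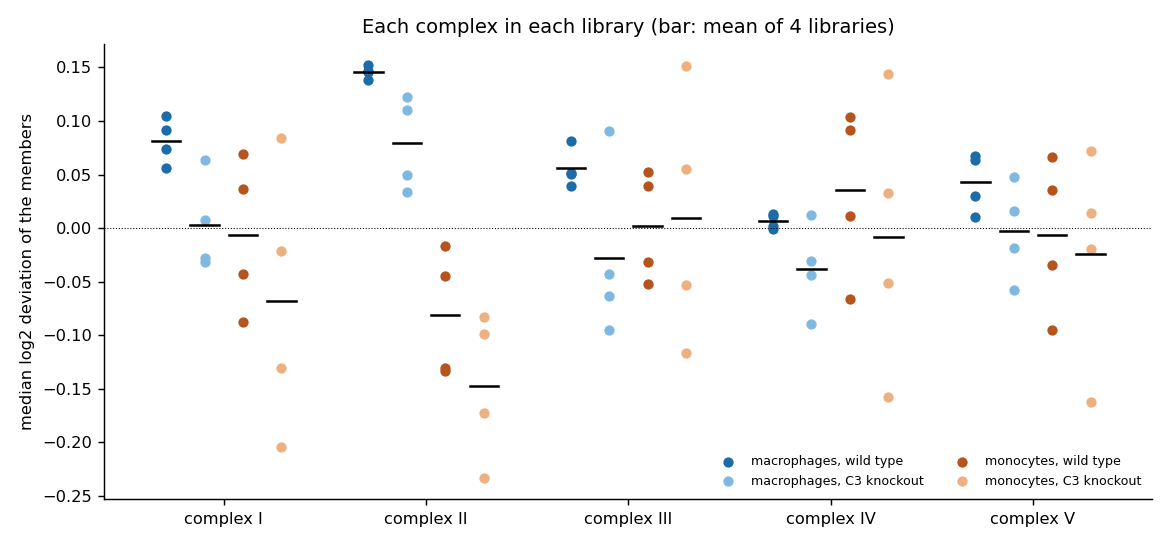
For each complex and library, the point is the median over its members of the log2 value minus the gene's mean over 16 libraries, with a bar at the mean of each group of 4. Complex II lies above 0.13 in all wild-type macrophage libraries and below 0 in all monocyte libraries, while the other complexes overlap between cell types in both genotypes.

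By library, complex II was the one with no overlap between cell types in both genotypes: its median deviation was 0.15 ± 0.01 in wild-type macrophages, 0.08 ± 0.04 in knockout macrophages, -0.08 ± 0.06 in wild-type monocytes and -0.15 ± 0.07 in knockout monocytes (SD, n = 4). Complex I averaged 0.08, 0.00, -0.01 and -0.07 in the same order. For complexes I, III, IV and V the cell types overlapped in both genotypes. Medians of complexes III and V between knockout cell types were 0.01 and 0.05 and turned to -0.06 and -0.01 with centred libraries.

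Few subunit genes differed between C3 knockout and wild-type mice, and the called ones were lower. In macrophages 2 of 78 members were lower and none higher, 2.56%, against 5.7% of 12568 genes in either direction and 3.13% lower. At an unadjusted limma p under 0.05 there were 17 lower and 0 higher, and the share of all genes at that cutoff was not computed. Of the 78 differences 68 were negative (87.2%), against 49.1% of all genes, with a median of -0.07 against 0.00. The median was negative in each complex, from -0.03 in complex V to -0.08 in complexes II and IV, on the deposited scaling. It was also negative in each complex with centred libraries (-0.04 to -0.09) and with recovered reads (-0.05 to -0.13). Members vary together between libraries, so these signs are not independent of each other. All 5 red blood cell genes were lower in knockout macrophages, with summed reads of 321 to 625 against 870 to 2467 in wild type, and 3 of 10 macrophage markers were lower, Mrc1 (-0.30), Apoe (-0.42) and Mertk (-0.51). Endothelial markers summed to 844 to 986 reads in knockout and 290 to 467 in wild-type macrophages, with 1 of 3 called, Kdr (1.15). Fibroblast and sarcoma markers summed to 169 to 930 and 821 to 2242, with a median difference of -0.95 over the 4 tested. The part of these markers in the subunit values was not tested.

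Ndufa4 was the clearest member between genotypes. Its 4 knockout macrophage libraries, 447 to 542 normalized reads, were all below the 4 wild-type libraries, 598 to 735 (log2 difference -0.29 ± 0.06 SE, limma adjusted p = 0.0142), and the adjusted p-value ran from 0.010018 to 0.0455 over 13 alternatives. In monocytes it stood at -0.12 ± 0.09 (adjusted p = 0.540), and the difference between those effects was -0.18 and not called. Cox7a2l is described as a factor that joins complexes III and IV into supercomplexes, and its function in this strain was not tested. It gave 1001, 1073, 979 and 939 in wild-type macrophages and 771, 843, 846 and 874 in knockout macrophages, without overlap (-0.19 ± 0.05, adjusted p = 0.0473). That call was lost in 11 of 13 alternatives, with adjusted p-values from 0.0382 to 0.163. In wild-type monocytes it gave 787, 887, 971 and 989, and in knockout monocytes 809, 652, 725 and 578 (-0.28 ± 0.08, adjusted p = 0.0913). It was called there at 0.0168 with all 16 libraries in 1 fit, at 0.0463 without knockout monocyte library 6, and at 0.00364 in the authors' deposited table. Cox7a2l lies on chromosome 17 of GRCm38, as does C3, with 26.3 Mb between them. The 6 tested members on chromosome 17 had a median difference of -0.10 in macrophages and -0.07 in monocytes, against -0.07 and -0.04 for the others. Whether that position bears on the values was not tested.

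In monocytes limma called 0 of 79 members, against 3.32% of 12867 genes. Recovered reads with voom also gave 0, and the authors' deposited table called 2, among them Cox7a2l. At an unadjusted limma p under 0.05 there were 3 lower and 0 higher, again without a share of all genes. Of the 79 differences, which include the row named Yjefn3, 60 were negative (75.9%), against 52.8% of all genes. Their median was -0.04 against -0.01 for all genes, and complex V was at 0.00. As in macrophages, these signs are not independent of each other. Dendritic cell markers summed to 395 to 1163 reads in knockout and 83.9 to 321 in wild-type monocytes, with 1 of 4 tested called, Cd209a (3.66). Of 8 monocyte markers 1 was called, Hp (-0.38), of 5 dissociation genes 1, Egr1 (-0.62), and of 3 endothelial markers 1, Kdr (0.82). The part of these markers in the monocyte values was not tested. Replicates were wider in monocytes: the median coefficient of variation of a complex I subunit was 13.6% in knockout monocytes, 8.66% in wild-type monocytes, 4.88% in knockout macrophages and 3.38% in wild-type macrophages. The difference of the knockout effects between cell types was called by limma in 0 of 79 members, against 0.617% of 13134 genes, and in 0 with voom or with the mouse as block. At an unadjusted p under 0.05 there was 1 member, Cox4i2, at 0.55 ± 0.25 (limma adjusted p = 0.407). The share of all genes at that cutoff was not computed here either.

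Members varied together within groups. After removing group means, the median Pearson r over 3003 pairs of members was 0.64 across 16 libraries, 0.67 within a complex and 0.63 between complexes, against 0.00 for a member with any other tested gene. It was 0.67 with centred libraries. The same median was 0.47 for mitochondrial ribosomal proteins, 0.83 for glycolysis genes and 0.20 for assembly factors. The members that followed the rest least were Atp5l (-0.26), Atp5s (-0.18) and Cox4i2 (0.00), all at low read numbers. Knockout monocyte libraries 6 and 7 were the extremes, with median member deviations of 0.10 and -0.18, while the other genes with under 1000 exonic bases stood at 0.17 and 0.01 in them and the mitochondrially encoded subunits at 0.03 and -0.34. The part of transcript length or RNA quality in this was not tested.

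Over all 16 libraries, the genes most like Ndufa4 by Pearson r were Fis1, Myl6, Ifi27l2a, Aldh2 and Gstm1 (r = 0.98 each, of 13134 genes). Those most like Cox6a2 were Anks6, Rnf180, Lat2, Asns and Commd10 (r = 0.98 each), and those most like Cox6b2 were Myl6, S100a6, Ms4a4b, Gpld1 and I830127L07Rik (r = 0.96 to 0.97). The points share libraries, and the cell types differ in 63.4% of the genes tested in wild type.

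Other mitochondrial genes were more often higher than lower in macrophages. Of 8 mitochondrially encoded subunits in the matrix 7 were higher in both genotypes and none lower, with medians of 0.41 and 0.49, among them cytochrome b (mt-Cytb, 0.54 and 0.75) and mt-Nd1 (0.55 and 0.59). Of 75 mitochondrial ribosomal proteins 47 were higher and 11 lower in wild type, 37 and 8 in knockout (medians 0.22 and 0.18), and of 46 assembly factors 21 and 6, and 22 and 5 (medians 0.21 and 0.20). The assembly factor Ndufaf4 rose by 0.85 and 0.56 and the iron-sulfur protein Nubpl by 1.22 and 1.19. Among 18 genes of the tricarboxylic acid cycle 8 were higher and 2 lower in wild type and 9 and 2 in knockout, with fumarase (Fh1) at 0.66 and 0.77. The coactivator Ppargc1b, the leading one of 14 biogenesis regulators (7 higher and 2 lower, and 7 and 0), was higher by 1.27 and 1.33. Nrf1, of the same list, stood at -0.21 in wild type (limma adjusted p = 0.00139), and none of the list was called lower in knockout. Of 20 electron carriers and other mitochondrial genes 13 were higher and 2 lower in wild type, 12 and 1 in knockout. Atpif1, the inhibitor of ATP synthase, was higher by 0.71 and 0.75, and the glycerol phosphate dehydrogenase Gpd2 was lower by values of -0.76 and -0.55.

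Glycolysis was the list that ran against these: 15 of 15 genes were lower in macrophages of both genotypes, with medians of -0.76 and -0.56. Pfkl and Pfkp, subunits of phosphofructokinase, stood at -0.81 and -0.98 in wild type. These lists were chosen by function, and each count is to be read against the 31.7% of all genes called in each direction in wild type.

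**Figure D5:**
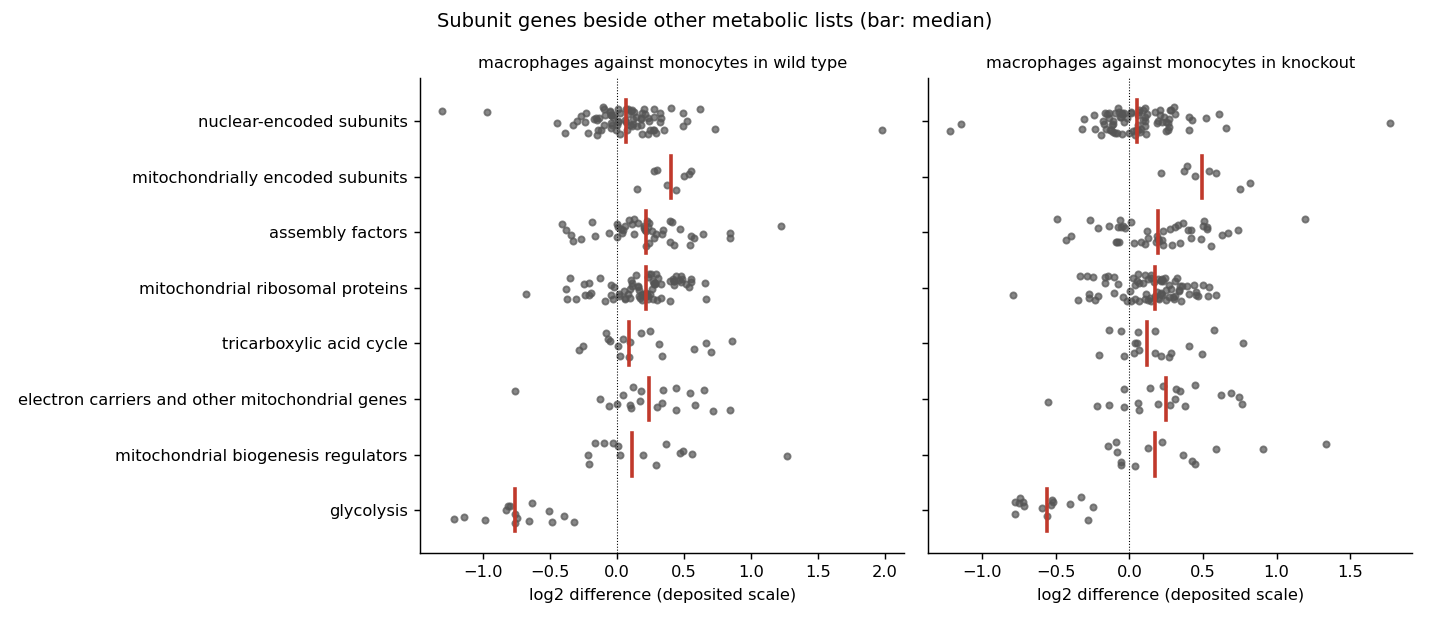
Each point is 1 gene, placed by its log2 difference between macrophages and monocytes (positive: higher in macrophages) in wild-type mice (left) and C3 knockout mice (right), with bars at each list's median. The nuclear-encoded subunits centre near 0 with 3 genes far out, the mitochondrially encoded subunits lie at 0.41 and 0.49, and glycolysis lies at -0.76 and -0.56.

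Between genotypes, counts in the same lists are to be read against the shares of all genes called in either direction. These were 5.7% in macrophages and 3.32% in monocytes. Among 46 assembly factors 3 rose in knockout macrophages and 2 in knockout monocytes. Timmdc1, an assembly factor of complex I, gave 86.5, 75.2, 84.0 and 84.5 normalized reads in wild-type macrophages and 496, 531, 487 and 550 in knockout macrophages (log2 difference 1.85 ± 0.07 SE, limma adjusted p = 2.82e-08). Wild-type monocytes gave 84.0, 114, 65.7 and 62.1, and knockout monocytes 315, 283, 291 and 375 (1.35 ± 0.13, adjusted p = 8.65e-05). All knockout libraries lay far above all wild-type libraries. Cox18, which inserts a complex IV subunit into the membrane, rose by 0.61 and 0.50, and Cox17, a copper chaperone of complex IV, by 0.31 in macrophages and stood at 0.03 in monocytes. The mitochondrial isocitrate dehydrogenase Idh2 fell in knockout macrophages, from 3584 ± 112 to 2566 ± 217 (SD, n = 4; -0.36 ± 0.05 SE, adjusted p = 0.000919), and stood at 0.10 in monocytes. That difference of effects was -0.46 ± 0.09 (adjusted p = 0.0164). Gpd2 rose by 0.23 (adjusted p = 0.00829) and Pfkp by 0.18 (adjusted p = 0.0488) in knockout macrophages, and the lactate transporter gene Slc16a3 stood at -0.51 (adjusted p = 0.00734) in knockout monocytes, all in limma. The mitochondrially encoded subunits had median genotype differences of 0.11 in macrophages and -0.05 in monocytes, and the mitochondrial ribosomal proteins -0.04 and 0.01.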

How the data were processed

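All 16 libraries were made with the SMART-Seq v4 kit, which does not mark strand. The submitters' processing notes name STAR 2.7.2b, DESeq2, GRCm38 and bcl2fastq 2.19.0.316, without settings. The authors deposited log2 values per gene, whose transform no header names and which followed a regularized logarithm. Per the file headers, the authors' tables for each cell type give a base mean (a signal, reads divided by size factors), a log2 fold change turned here to knockout minus wild type, a Wald score, and p-values. Reads were recovered by inverting the transform: 99.5% of values at base means of 1 to 10 and 98.5% at 10 to 100 lay within 0.05 of a whole read, and 22.2% at 1000 or more, where the median distance was 0.0056% of the value.

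Genes reaching a linear value of 10 in at least 4 libraries were fitted in limma 3.58.1 (R 4.3.3; trend, robust) on the deposited log2 values, each comparison on its own 8 libraries and the difference of effects on all 16, with Benjamini-Hochberg adjustment over all genes kept and calls at 0.05. The code was tested on simulated data. The members, lists and the rule for named genes were chosen with earlier results of these data known. Named were the 5 largest called rises and falls per comparison, the smallest adjusted p-value per complex, isoforms, 1 reference subunit per complex and up to 4 called members per other list with the smallest adjusted p-values; further subunits were named to complete their complex, and 1 member is counted but not reported by name here. Macrophage and monocyte libraries of 1 number come from the same mouse, so numbers pair them: deviations from group means correlated at 0.417, 0.107, 0.031 and 0.207 for wild-type mice, and at 0.052, 0.084, 0.211 and 0.083 for knockout mice. Alternatives were no filter, each library left out, median centring, recovered reads with TMM and voom, 1 fit of all libraries, the mouse as block and the authors' tables.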

Additional observations from a re-analysis of the deposited data

Results flagged for a closer look

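In groups of 4, the highest or lowest library was singled out where its gap to the nearest other passed Dixon's 95% critical value. This held in 6 of 128 groups, and chance gives about 1 in 20. Cox6a1 was at 4503 normalized reads in wild-type macrophage library 4, the others at 4143 to 4157. Cox8a was at 3402 in knockout macrophage library 9, the others at 3074 to 3113. Ndufa1 was at 1020 and Uqcrfs1 at 2384 in knockout macrophage library 6, the others at 1104 to 1117 and 2680 to 2715. Ndufa12 was at 413 in knockout monocyte library 7, the others at 562 to 587. Ndufa3 was at 963 in wild-type macrophage library 3, the others at 1067 to 1078.

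The knockout effect on Idh2 differed between macrophages and monocytes by -0.46 on the log2 scale (limma adjusted p = 0.0164).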

How the results depend on the processing

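Of 36 tests of named members that passed, 33 passed in every alternative run. The others were Cox7a2l in macrophages between genotypes and between knockout cell types, and Ndufa3 between knockout cell types. Members called lower in knockout macrophages numbered 2, but 1 with no filter, 1 in a joint model of the 16 libraries and 1 in the authors' deposited table. Leaving out libraries gave 1 to 2 (1 without any single library other than knockout macrophage library 9). In knockout monocytes 0 were lower, 1 in the joint model and 2 in the authors' table, and 0 to 1 with each library left out (1 without knockout monocyte library 6). Between knockout cell types 9 were lower, 17 with centred libraries, 14 in the joint model and 5 to 16 with each library left out (5 without knockout monocyte library 6 or knockout macrophage library 8, 16 without knockout monocyte library 7); the cause was not tested. Centring changed the split of higher and lower calls from 28 and 16 to 23 and 20 in wild type and from 23 and 9 to 19 and 17 in knockout. With the mouse as replicate block the paired fits called 28 higher and 18 lower in wild type and 22 and 9 in knockout. Under this block the call of Cox7a2l between knockout cell types was lost (adjusted p = 0.0544) and Cox4i2 between wild-type cell types was gained, and no count of calls moved by over 1.5 times. Cox4i2 there was also called with centred libraries (adjusted p = 0.0418), in the joint model (0.0368) and without wild-type monocyte library 1 (0.0425). With 4 libraries a group and 18689709 to 29035416 reads each, counting error weighs most on members at low reads such as Cox6a2 and Cox6b2.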
